A study of Drosophila melanogaster with 3 samples.

Results

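The cytoplasmic ribosomal protein genes of Drosophila melanogaster were examined for binding of the zinc-finger protein Ouib, tagged with GFP. Members were the protein-coding genes of the Ensembl annotation whose symbol starts with RpL or RpS, leaving out the mitochondrial mRp genes and symbols that contain "like". This rule gave 87 genes of 13968 protein-coding genes, 50 of the large and 37 of the small subunit. The study is a chromatin immunoprecipitation followed by sequencing (ChIP-seq) with an antibody against GFP. It used whole prepupae, males and females pooled, of 1 transgenic line that stably carries a fusion of CG11762 (the gene ouib) with eGFP at its C terminus. All 3 samples are biological replicates of this 1 group, so no genotype, treatment or stage can be compared. The age is labelled as unknown, and the sources used here do not give the promoter that drives the fusion. The control that entered the authors' peak calls was not analysed here.

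Ribosomal protein genes encode the protein part of the ribosome, and cells need their products in equal amounts. In flies, loss of a single copy of many of them gives the Minute phenotype of slow growth and short, thin bristles. Many of their promoters start transcription at a polypyrimidine TCT initiator and use the TBP-related factor Trf2, and the factors Dref (recognising TATCGATA) and M1BP (recognising a GGNCACAC element) are known at them. Ouib itself is known for its role in the prothoracic gland, the source of ecdysone, where it is needed for expression of the steroid synthesis gene spok. That gland is a small part of a whole prepupa, and the lists do not tell which cells a peak came from.

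The values are the authors' peak lists on the genome assembly dm6, each peak with a summit and a signal value whose scale is not stated. The optimal list, thresholded by the authors on reproducibility over all replicates, holds 5048 peaks. All of them were among the 5048 strongest peaks of the pooled list of 30000, so these lists are not independent of each other. Each replicate's own list also holds 30000 peaks, background included, and was reduced here to its 5048 best by signal. The median signal of these best peaks was 34.4, 45.1 and 24.8 in replicates 1, 2 and 3. Each replicate's signal was therefore divided by its own median, and the result is called the relative signal. Replicates 2 and 3 had 1 interval in common to the base and the other pairs of replicate lists had none. The lists hold no read counts, so depth is unknown.

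An optimal summit lay within 1000 bp of an annotated transcription start site (TSS) at 48 of the 87 ribosomal protein genes, or 55.2%, against 18.0% of all protein-coding genes. Of the large subunit, 29 of 50 genes had such a summit (58%), and of the small subunit 19 of 37 (51.4%). The summits lay close to the starts. Within 100 bp of a TSS, a distance chosen after the data had been seen, 42 of the 87 genes still had one, 26 large and 16 small, against 3.54% of all protein-coding genes. In windows of other sizes the ribosomal count was 46 genes at 250 bp (all protein-coding genes 10.9%), 47 at 500 bp (14.8%) and 59 at 5000 bp (36.7%). The whole pooled list, which includes background peaks, had a summit within 1000 bp of 77 members, 45 large and 32 small, against 47.8% of all protein-coding genes, and within 100 bp of 65 members, against 14.8%. Enrichment of the list was not tested.

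The sequences around the start show which letters are there. Summits are not marked in them, and that of RpL7, 34 bp downstream, lies beyond the bases shown. Shown are the 6 genes with the highest mean relative signal among members whose strongest summit lay within 100 bp of a start and whose sequence could be printed, followed by 3 well-known members without an optimal summit. Each line holds 60 bases before the annotated start and the first 20 transcribed bases, read 5′ to 3′ on the gene's strand from the NCBI copy of the dm6 assembly. Capitals mark the TCT initiator core CTTT near the start, and TATCGATA or GGNCACAC on either strand. The first group is RpS27 (chr3R:25247495-25247574, minus strand, summit 18 bp upstream of the start), RpL7 (chr2L:10200944-10201023, plus strand, 34 bp downstream), RpS10b (chrX:19597971-19598050, plus strand, 10 bp upstream), RpL24 (chr2L:13395112-13395191, minus strand, 17 bp upstream), RpS4 (chr3L:13041741-13041820, plus strand, 19 bp downstream) and RpL34a (chr3R:26059248-26059327, minus strand, 52 bp upstream). The members without an optimal summit are RpS2 (chr2L:9897533-9897612, minus strand), RpS30 (chr3R:20850456-20850535, plus strand) and RpL6 (chr3R:31596185-31596264, minus strand).
RpS27: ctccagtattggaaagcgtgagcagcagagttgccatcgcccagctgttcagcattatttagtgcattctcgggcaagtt
RpL7: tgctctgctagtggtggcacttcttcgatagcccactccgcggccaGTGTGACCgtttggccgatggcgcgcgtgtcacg
RpS10b: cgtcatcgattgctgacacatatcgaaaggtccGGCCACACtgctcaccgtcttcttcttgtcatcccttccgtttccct
RpL24: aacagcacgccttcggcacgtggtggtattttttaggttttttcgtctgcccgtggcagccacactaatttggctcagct
RpS4: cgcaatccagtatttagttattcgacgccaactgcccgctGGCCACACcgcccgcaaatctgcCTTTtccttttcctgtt
RpL34a: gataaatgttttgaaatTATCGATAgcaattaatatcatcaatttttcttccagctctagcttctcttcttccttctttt
RpS2: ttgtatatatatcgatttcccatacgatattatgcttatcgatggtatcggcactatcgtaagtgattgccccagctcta
RpS30: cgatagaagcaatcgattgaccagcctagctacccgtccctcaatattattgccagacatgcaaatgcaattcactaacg
RpL6: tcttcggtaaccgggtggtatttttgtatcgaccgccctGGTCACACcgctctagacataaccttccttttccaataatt
These 9 sequences, each of the start shown, share no single marked element. RpS4 held both a CTTT core, with its C at base 4 of the transcript, and a GGNCACAC match, RpL7 and RpS10b held a GGNCACAC match, RpL34a held TATCGATA, and RpS27 and RpL24 held none of the 3. At another annotated start, outside the lines shown, RpS27, RpL24, RpL7 and RpS30 do hold the CTTT core. RpL6, which has no optimal summit, also held a GGNCACAC match.

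Across the whole family the nearest optimal summit lay a median of 33 bp from the start, against 206 bp in the 2469 other protein-coding genes with a summit within 1000 bp. The middle range of the ribosomal protein genes, from the lower to the upper quartile, ran from 16.8 to 51.3 bp, and that of the other genes from 120 to 376 bp. The summit was upstream of the start in 34 of 48 members and downstream in 14, with a median of 28 bp upstream. In the other genes the median position was 161 bp upstream. The median distance was 34 bp in large and 30 bp in small subunit genes. The 18 mitochondrial ribosomal protein genes with a summit, of 73 in all, had a median distance of 160 bp, and 2 of them lay within 100 bp.

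**Figure D1:**
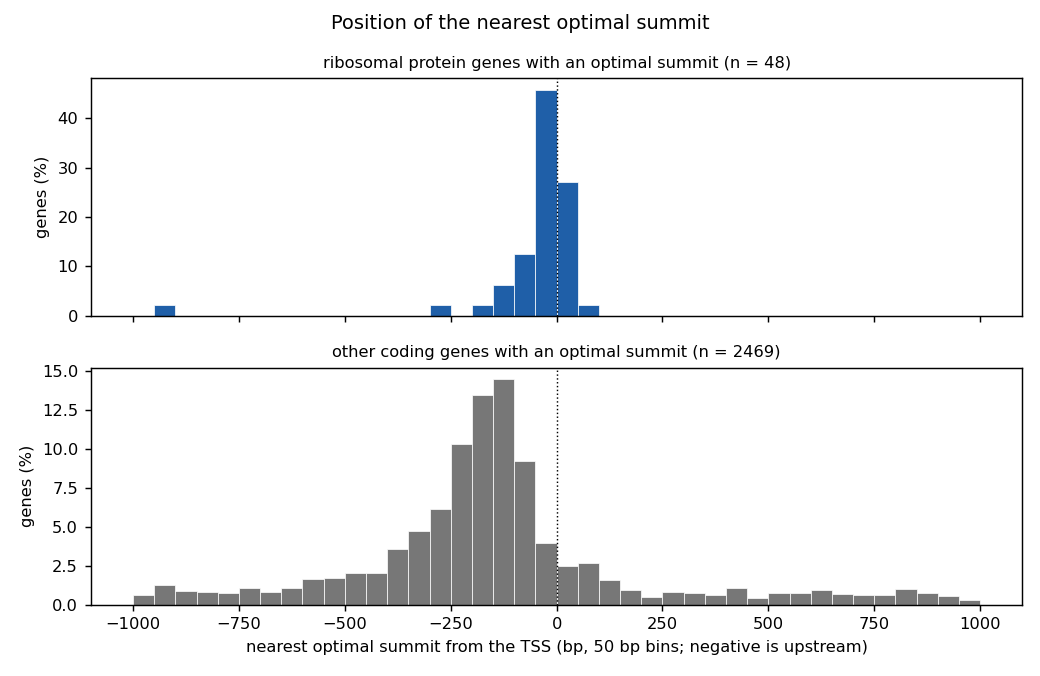
Distance of the nearest optimal summit from the annotated TSS (x axis, bp in bins of 50, negative is upstream) as the percentage of genes with a summit within 1000 bp (y axis, scaled separately in each panel), for 48 ribosomal protein genes above and 2469 other protein-coding genes below. The ribosomal summits gather on both sides of the start with a median of 28 bp upstream, and the summits of other genes peak further upstream, with a median of 161 bp.

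The position was measured again in each replicate's own best peaks. Of the ribosomal protein genes with a best-peak summit within 1000 bp, the nearest one lay within 100 bp at 87.0%, 75.5% and 87.5% in replicates 1, 2 and 3. Among other protein-coding genes with such a summit the shares were 21.3%, 20.5% and 21.5%. The share was higher in ribosomal protein genes in every replicate, with means of 83.3 ± 6.77% in ribosomal protein genes and 21.1 ± 0.523% in other genes (SD, n = 3). The difference of 62.2 ± 6.26 percentage points was positive in 3 of 3 replicates (exact sign-flip permutation test, two-sided, p = 0.25). With 3 replicates 0.25 is the smallest p this test can give, so the design cannot reach 0.05. Since the distance was chosen on these data, the replicates are no independent support for it.

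The TSS nearest to the summit was in nearly all cases the member's own. Among all protein-coding genes, no start was nearer to the counted summit than the member's own at 44 of 48 members. These include RpS27A, where another gene starts at the same position (0 bp apart), so that its summit is equally near both. At 4 members another gene's start was nearer. The 4 are RpS19b, whose counted summit lay 905 bp upstream of its start and 523 bp from that of CG5854, RpL32 (127 bp from CG7943), RpL34b (133 bp from CG8132) and RpS28b (117 bp from l(1)G0320). RpS28b had another optimal summit 22 bp upstream of its start. The counted peak interval, with a median width of 396 bp, covered a start of 44 of the 48 members. No counted summit served more than 1 member.

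Few members lay near the edge of the 1000 bp window. Just inside it were RpS19b, with its nearest optimal summit at 905 bp, RpL23, which encodes a large subunit protein, at 272 bp and RpL32 at 182 bp. Just outside were RpS3 at 1570 bp, RpS15Ab at 1805 bp and RpL12 at 1993 bp.

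The signal of these peaks was not high. The median signal in the authors' optimal list was 107 over the 48 members, against 114 over other protein-coding genes with a summit. Only RpS19b, by the summit that lies nearer to CG5854, was among the 500 strongest optimal peaks, against 16.8% of the other genes. Of the members, 27 fell in the stronger and 21 in the weaker part when the optimal list was divided into equal parts by signal. In the replicates' best peaks the median relative signal of members was 1.17, 0.939 and 1.07, or 1.06 ± 0.117, and that of other protein-coding genes 1.10, 1.14 and 1.11, or 1.11 ± 0.0206 (SD, n = 3 each). The ribosomal value was above that of other genes in replicate 1 and below it in replicates 2 and 3. With 10000 best peaks the mean was 1.44 in members and 1.21 in other genes, so the order depends on how many peaks are kept.

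Large subunit genes are described in full by the height of their mean relative signal. RpL32 is widely used as the reference transcript rp49. It had a relative signal of 2.31, 2.76 and 1.52 in replicates 1, 2 and 3 (2.19 ± 0.629, SD, n = 3). Its counted summit, 182 bp upstream, lies nearer to the start of CG7943. RpL7 had 1.99, 2.33 and 1.67 (2.00 ± 0.327), 34 bp downstream of its start. Both were above the replicate median of 1 in every replicate. RpL34b had 1.83, 1.87 and 1.96 (1.88 ± 0.0691), a narrow spread, at a summit 136 bp upstream that lies nearer to the start of CG8132. RpL24, which forms a bridge to the small subunit, had 1.75, 1.23 and 1.89 (1.63 ± 0.346), and its summits in the 3 replicates lay within 7 bp of each other. Other large subunit genes high by this measure were RpL34a, RpL14 and RpL13A. RpL34a had 1.86, 1.15 and 1.54 (1.52 ± 0.355). RpL14 had 1.83, 1.31 and 1.19 (1.44 ± 0.342) and RpL13A 1.26, 1.35 and 1.56 (1.39 ± 0.156). The 7 genes described stood above 1 in every replicate, and their spreads overlap from one to the next, so their order is not resolved.

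In the small subunit the highest mean stood above that of the large subunit (2.19) only through RpS19b. RpS19b, a paralogue of RpS19a, had a relative signal of 3.75, 2.90 and 3.44 (3.36 ± 0.431, SD, n = 3) at the summit 905 bp from its start. RpS27, a zinc-finger protein of the small subunit, had 2.23, 2.36 and 1.84 (2.15 ± 0.270), 18 bp upstream. RpS27 is thus the highest small subunit member whose counted summit lies at its own start. RpS10b had 2.38, 1.51 and 1.46 (1.78 ± 0.521), highest in replicate 1. RpS28b, whose protein lies near the exit of the mRNA, had 1.52, 1.58 and 2.21 (1.77 ± 0.382) at its stronger summit 756 bp upstream. RpS4 had 1.19, 1.32 and 2.08 (1.53 ± 0.480), high in replicate 3, and RpS20, of the head of the small subunit, 1.50, 1.71 and 1.11 (1.44 ± 0.302). RpS25 had 1.11, 0.807 and 1.56 (1.16 ± 0.380) and RpS5a, which lies at the mRNA exit, 1.11, 0.896 and 1.15 (1.06 ± 0.139). The values of RpS25 and RpS5a fell on both sides of 1.

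Over all 48 members with an optimal summit, 16 stood above a relative signal of 1 in all 3 replicates and 12 below it in all 3. The mean ranged from 0.580 at RpL39, a small protein of the exit tunnel, to 3.36 at RpS19b. The median coefficient of variation between replicates was 21.4%. It was highest at RpS15Aa (61.4%), with 1.17, 1.06 and 0.242, where replicate 3 was far below the others. RpS21 had 0.610, 1.09 and 0.509 (42.3%), and RpL18 had 1.45, 0.939 and 0.620 (41.5%). The summit itself moved by a median of 54.5 bp between the replicates' peaks, more than the median distance from the start.

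**Figure D2:**
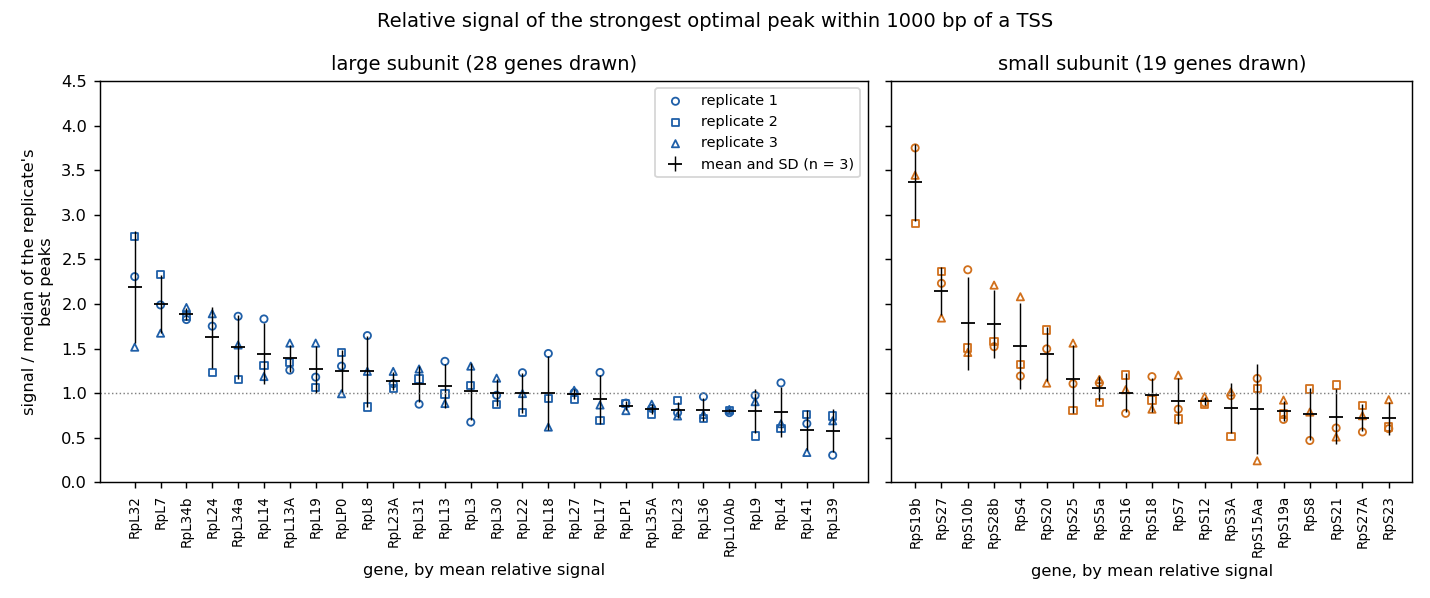
Relative signal (y axis, the authors' signal divided by the median of the replicate's 5048 best peaks) at the strongest optimal peak within 1000 bp of a TSS, for 28 large subunit genes on the left and 19 small subunit genes on the right, each ordered by its mean, with 1 of the 29 large subunit genes not drawn. Symbols are the 3 replicates, and bars are the mean with SD. RpS19b stands highest at 3.36, and the members spread on both sides of the dotted line at 1.

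Large and small subunit genes were compared in each replicate's best peaks. A summit within 1000 bp was found at 46 members in replicate 1 (all protein-coding genes 18.4%), at 49 in replicate 2 (18.0%) and at 48 in replicate 3 (17.8%). The share was 62% of large subunit genes in each replicate, and 40.5%, 48.6% and 45.9% of small subunit genes. The large subunit was thus higher in 3 of 3 replicates, by 17.0 ± 4.13 percentage points (SD, n = 3; exact sign-flip permutation test, two-sided, p = 0.25, the smallest it can give). This sign was lost in replicate 2 with 2500 best peaks (−1.03 points, mean 4.07) and in replicate 3 with a window of 5000 bp (−0.865 points, mean 2.47). Within 100 bp the counts were 40 members in replicate 1 (all protein-coding genes 4.13%), 37 in replicate 2 (3.89%) and 42 in replicate 3 (4.05%). In the optimal list the difference was 6.65 points, 1.51 without the duplicate paralogues and −4.27 with a window of 5000 bp. Of the 39 members with no optimal summit, 8 of 21 large and 0 of 18 small subunit genes had a summit in the best peaks of at least 1 replicate. The share over all protein-coding genes without an optimal summit was not calculated, and this contrast was not tested. The median relative signal of large minus small subunit genes was 0.0146, −0.122 and −0.0806, without a common sign (mean −0.0626 ± 0.0700, SD, n = 3; exact sign-flip permutation test, two-sided, p = 0.5), and the mean turned to 0.0975 with 10000 best peaks. These p-values measure only the spread between these 3 samples.

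**Figure D3:**
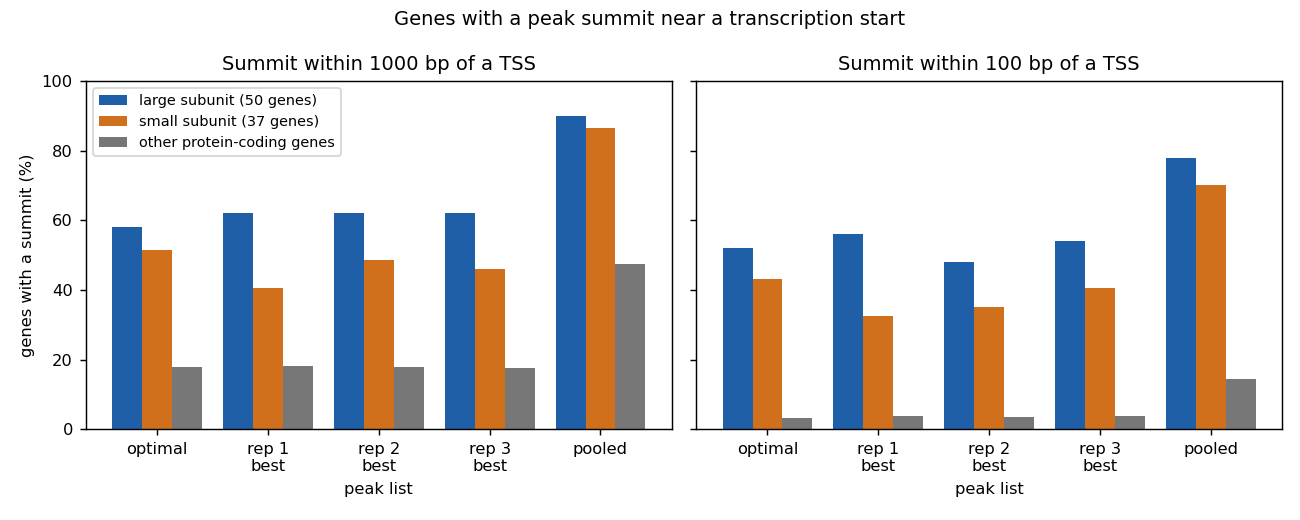
Percentage of genes (y axis) with a summit within 1000 bp (left) and within 100 bp (right) of a TSS in the optimal list, the 5048 best peaks of each replicate and the whole pooled list (x axis), for 50 large subunit genes, 37 small subunit genes and the other protein-coding genes. The large subunit bar is higher than the small subunit bar in every list drawn, by 6.65 points in the optimal list at 1000 bp, and both are higher than the bar of other genes.

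All 48 counted optimal peaks overlapped a peak in all 3 whole replicate lists by at least 1 bp. The authors thresholded the optimal list on reproducibility over these replicates, and the whole lists include background. This overlap is therefore no independent support for the peaks. In the shorter lists of best peaks, 38 of the 48 members had a summit in all 3 replicates, 9 in 2 and 1, RpS21, in 1. When an optimal peak had to be among the best of all 3 replicates, the share of members fell from 55.2% to 43.7%. The share of all protein-coding genes fell from 18.0% to 12.4% under the same rule. Recurrence in all 3 replicates is thus not particular to ribosomal protein genes, and the shares were not tested against each other.

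Of the 39 members without an optimal summit, 29 had a summit of the pooled list within 1000 bp, 16 of the large and 13 of the small subunit. Of these 29, 21 had it within 100 bp of the start. Over all protein-coding genes the pooled list had a summit within 1000 bp at 47.8% and within 100 bp at 14.8%. These shares include genes that have an optimal summit. Members just under the threshold were RpL12 at pooled rank 5248, RpL10 at 5433, RpL37A at 5478 and RpS14a at 5616, and 19 of the 29 ranked within the first 10000. Over all 77 members with a pooled summit the median distance was 35 bp, against 173 bp over 6606 other protein-coding genes. No pooled summit lay near 10 members. Among them were RpL6, RpL10Aa, RpL11, RpL29, RpL37-2, RpS2, RpS15Ab, RpS28a and RpS30. Of these 10, 6 had a summit in at least 1 whole replicate list and 4 in none. RpL11 was the strongest of them, with a relative signal of 0.580 in replicate 1, no summit in replicate 2 and 1.09 in replicate 3.

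**Figure D4:**
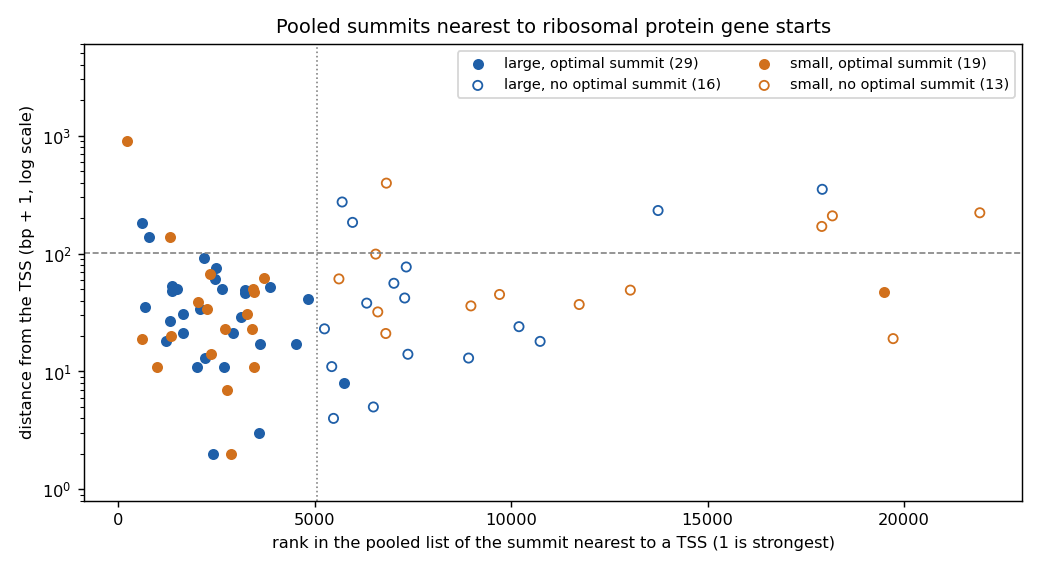
Rank in the pooled list (x axis, 1 is strongest) and distance from the TSS (y axis, bp + 1, log scale) of the pooled summit nearest to each of the 77 members that have one within 1000 bp. Filled points are members with an optimal summit and open points those without, the dotted line is rank 5048 and the dashed line 100 bp. Within 100 bp lie 44 of the 48 filled points and 21 of the 29 open points, and the filled points right of the dotted line are members whose counted optimal summit is another, stronger one.

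Each role list but that of RpS6 and that of RpL5 and RpL11 held members with an optimal summit. Of the stalk, which recruits elongation factors, RpLP0 (relative signal 1.30, 1.45 and 0.994) and RpLP1 (0.890, 0.888 and 0.805) had an optimal summit 49 and 48 bp upstream, and RpLP2 and RpL12 had none. RpL5 and RpL11, which carry the 5S RNA into the ribosome, had none. Of the genes that encode a fusion with ubiquitin, RpS27A had a summit 61 bp upstream (0.566, 0.864 and 0.748) and RpL40 had none. Around the mRNA channel, RpS23 had one 10 bp downstream (0.602, 0.622 and 0.928), and RpS2, RpS3 and RpS30 had none. At the exit of the peptide tunnel, 4 of 6 had one. RpL19 (1.18, 1.06 and 1.56) stood above 1 in every replicate, RpL23A (1.11, 1.05 and 1.24) as well, and RpL31 (0.877, 1.16 and 1.27) and RpL17 (1.23, 0.693 and 0.868) fell on both sides of it. RpL26 and RpL35 had no optimal summit. RpS6, the substrate of the TOR-dependent S6 kinase, had none, and its nearest pooled summit lay 395 bp upstream.

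Members were also grouped by where they lie on the chromosomes. RpL5, RpL15 and RpL38, which lie in or next to centromeric heterochromatin, had no optimal summit, and the nearest one lay 669 kb from RpL5, 4388 kb from RpL15 and 1266 kb from RpL38. Each of the 3 had a pooled summit close to its start, 55 bp from RpL5 (rank 7015), 13 bp from RpL15 (rank 7372) and 4 bp from RpL38 (rank 6493). RpS3A, the only member on chromosome 4, had an optimal summit 49 bp upstream, with 0.973, 0.511 and 1.01. On the other arms an optimal summit was found at 8 of 17 members on 2L, 9 of 19 on 2R, 8 of 14 on 3L, 14 of 22 on 3R and 8 of 14 on X. Over all chromosomes the share was 55.2% of members and 18.0% of all protein-coding genes. Shares of all protein-coding genes per arm were not calculated, so these counts do not tell the arms apart.

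Of the 9 pairs of paralogues, 5 had an optimal summit at 1 copy only, 2 at both and 2 at neither. Of the 9 copies listed as duplicates or as enriched in the germline, 2 had an optimal summit, RpS19b and RpL34a. This share of 22.2% is near the 18.0% of all protein-coding genes. RpS19b was counted by a summit 905 bp upstream that lies nearer to CG5854. The copy with a summit was RpS5a, RpS10b, RpS15Aa, RpS28b or RpL10Ab, while RpS5b, RpS10a, RpS15Ab, RpS28a and RpL10Aa had none. Both copies had one in the pair RpS19a (0.706, 0.766 and 0.923, 46 bp upstream) and RpS19b, and in the pair RpL34a and RpL34b. Neither copy had one in the pair RpS14a and RpS14b, which are neighbours, or in RpL37-1 and RpL37-2. The sources used here do not say how reads that match more than 1 copy were treated.

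Some ribosomal protein genes lie opposite another protein-coding gene that starts close by on the other strand. Such a start lay within 500 bp of 33 members (37.9%), against 27.7% of other protein-coding genes. Of the 33 members, 26 (78.8%) had an optimal summit within 1000 bp, against 22 of the 54 members without such a start (40.7%). Among other protein-coding genes the same shares were 29.9% with and 13.1% without an opposite start. At the 26 members with both, the counted summit was nearer to the ribosomal protein gene's start at 23 and nearer to the partner's at 3, with median distances of 45.5 bp and 246 bp. RpL13 shares its summit with Dref, whose product binds ribosomal protein promoters, at 33 bp from the RpL13 start and 51 bp from that of Dref. RpL14 lies opposite Nelf-E (47 and 80 bp from the summit), RpS27 opposite the nucleoporin gene Nup37 (18 and 126 bp) and RpL36 opposite Mybbp1A (2 and 292 bp). Without an opposite start, 21 of the 22 members with a summit had it within 100 bp. A small nucleolar RNA lay within 17 of the 48 members with a summit (35.4%) and within 11 of the 39 without (28.2%). These shares were not tested, and the share over all protein-coding genes was not calculated.

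The promoter letters were counted as a description, on RefSeq's copy of the assembly. The core CTTT of the TCT initiator started within 5 bases of an annotated start at 57 of the 87 members (65.5%), 32 large and 25 small, against 8.06% of all protein-coding genes. Counted over starts, since members have more of them, the core was at 63 of 149 starts (42.3%), against 6.00% of all starts. Its C stood most often at base 5 of the annotated transcript, at 19 starts, and at base 1 in 3. An optimal summit was found at 34 of the 57 members with the core (59.6%) and at 14 of the 30 without (46.7%). Within 100 bp lay 88.5% of the summits nearest to starts with the core and 86.4% of those nearest to starts without it. Over the 300 bases from 250 before to 50 after the most upstream start, on both strands, TATCGATA was in 29.9% of members and 9.36% of all protein-coding promoters, GGTCACAC in 14.9% and 7.69%, TATAAA in 49.4% and 45.8%, GAGAG in 17.2% and 29.7%, and CACGTG in 6.90% and 4.20%. The degenerate GGNCACAC, which contains GGTCACAC and was added after the data had been seen, was in 27.6% of members and 11.2% of all. TATCGATA stood in 29.2% of the members with an optimal summit and 30.8% of those without, and GGNCACAC in 25% and 30.8%. The median GC content of these windows was 38.3% in members with a summit and 34.3% in those without, and 38% over all protein-coding genes. In the 200 bp centred on the counted summit it was 42.5% in members and 33% in other protein-coding genes, and for summits within 100 bp of a start 43% and 35%. Whether base composition, sequencing depth or the control bears on the position of the summits was not tested.

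Other genes of protein synthesis showed the short distance in part. Of 7 ribosomal genes outside the symbol rule, sta, which encodes a small subunit protein, and Rack1, a scaffold on the small subunit, had an optimal summit, 24 and 28 bp upstream, and the 5 copies named as "like" had none. Of 8 elongation genes 3 had one, all within 100 bp: eEF1alpha1 (27 bp upstream), eEF1gamma (22 bp upstream, mean relative signal 2.24 ± 0.401, SD, n = 3) and eEF2 (99 bp downstream). Of 27 ribosome biogenesis genes 5 had one, of which RIOK1 lay within 100 bp, and eIF6, which keeps the subunits apart, had the highest signal at 5.28 ± 0.694. Of 7 RNA polymerase I genes 1 had one, Polr1D. Of 8 genes listed as regulators 6 had one, among them M1BP (3.40 ± 0.687, 240 bp upstream) and REPTOR (3.85 ± 0.412, 181 bp upstream). The other 4 were lower in signal: Dref at 1.08 ± 0.248 (51 bp upstream), Xrp1 at 0.970 ± 0.119 (797 bp upstream), BEAF-32 at 0.871 ± 0.339 (100 bp upstream) and Trf2 at 0.639 ± 0.259 (595 bp downstream). These shares stand beside 18.0% of all protein-coding genes and were not tested.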

How the data were processed

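ChIP-seq peaks of Ouib-GFP were analysed in 3 biological replicates. According to the deposited lists of files, the authors called peaks per replicate and on all 3 pooled, each against a control, and thresholded the optimal list by irreproducible discovery rate. Aligner, caller and versions: not given in the sources used here. The authors' deposited signal per peak has no stated scale. The dm3 lists were not used.

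Summits were assigned to every protein-coding gene with an annotated TSS within 1000 bp (Ensembl release 115, annotation BDGP 6.54), and the strongest was counted. For relative signal, each replicate's peak overlapping the optimal peak by at least 1 bp was used. Scripts in Python 3.11.15 with pandas 2.3.3, numpy 2.4.6 and scipy 1.17.1 were tested on simulated data. Of 30618 annotated start codons, 99.8% read ATG in the genome copy. Sequences are printed only from arms other than 2R.

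Members and lists were chosen with earlier results of these data known. Named are the 8 members of each subunit with the highest mean relative signal, all members of the role and paralogue lists, the 3 nearest to each side of the window edge and the 3 of highest variation. Some results for single members are not reported here. Other named members illustrate counts and were chosen after their values were seen. The share within 100 bp and GGNCACAC were also added after the data had been seen.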

Additional observations from a re-analysis of the deposited data

How the results depend on the processing

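The share of members with an optimal summit (main value 55.2%) was within the replicate spread at 500 bp and with only the most upstream TSS. It was 48.3% at 100 bp (added after the data had been seen), 52.9% at 250 bp, 67.8% at 5000 bp, 51.7% when a summit counted only for its nearest gene, 59.0% without the duplicate paralogues, 1.15% in the 500 strongest peaks, 31.0% in the stronger part of the optimal list, 43.7% for peaks among the best of all 3 replicates, 37.9% with 50% of both intervals overlapping, 88.5% in the pooled list, and 46.0% to 48.3% with 1 replicate left out. The large minus small subunit share (6.65 points) was −4.27 at 5000 bp, 1.51 without the duplicate paralogues, −2.70 in the 500 strongest peaks, 14.9 for peaks among the best of all 3 replicates, 14.3 with 50% overlap, and 8.76 to 16.2 with 1 replicate left out, with 14.2 without replicate 2 and 16.2 without replicate 3, where only peaks among the best of the remaining replicates count. In the replicates' best peaks this difference (17.0 points) stayed positive in all 12 alternatives, from 2.47 at 5000 bp to 19.7 at 500 bp, and was 14.7 to 18.8 with 1 replicate left out. The median relative signal of members (1.06) was 0.885 against 1.11 in other genes with 2500 best peaks, 1.44 against 1.21 with 10000, a percentile of 53.6 against 57.6 by rank, and 1.00 to 1.12 with 1 replicate left out. The large minus small subunit signal (−0.0626) was 0.0975 with 10000 best peaks and 0.0110 at 500 bp, the cause was not tested, and it was −0.101 to −0.0330 with 1 replicate left out. The share of summits within 100 bp in ribosomal protein minus other genes (62.2 points) was positive in all 8 alternatives, from 43.4 at 200 bp to 65.8, and 60.3 to 65.8 with 1 replicate left out. The differences tested over the 3 replicates were taken within each replicate. No comparison between groups of samples was possible because the samples form 1 group.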
